A study of Mus musculus with 9 samples.

Results

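The change from high oxygen to room air in mouse retina was examined by setting the 3 samples titled hypoxic_P12.5 against the 3 titled hyperoxic_P12 (P, postnatal day), 6 of the 9 samples of the series. The samples were chosen by their titles alone. All mice were C57BL/6N, and the labels name no mutant allele or transgene. In both groups litters and their mothers had lived in 75 ± 2% oxygen for 5 days from P7. The hyperoxic retinas were collected when this exposure ended, at P12, and the P12.5 retinas 12 hours later, after that time in room air. The other 3 samples, retinas of normal P12 mice, are given as a control level. Each sample held the RNA of 2 retinas of 1 mouse, hybridised to an Illumina bead array, and the design text calls the 3 samples of a condition biological replicates. Normal mice of P12.5 are not among the samples, so time in room air, 12 hours of age and time of day cannot be told apart.

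The procedure is known as oxygen-induced retinopathy. In newborn mice the retinal vessels are still growing, high oxygen halts and prunes them, and on return to room air the poorly perfused inner retina becomes short of oxygen and later grows abnormal vessel tufts. Cells read oxygen through prolyl hydroxylases (the Egln enzymes), which mark the HIF alpha subunits for destruction through the Vhl protein. When oxygen is short the alpha subunits last, pair with Arnt and bind the motifs ACGTG or GCGTG near genes for glucose use, vessel growth and oxygen sensing. Müller glia, which span the retina, answer many injuries with a gliosis programme that runs partly through cytokines of the LIF and oncostatin M family and the transcription factor Stat3.

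Of 46613 probes analysed, 19620 were tested, those with a detection p under 0.05 (a signal above the negative control beads) on all 3 arrays of at least 1 group. They included probes of 10948 named genes, and each gene is given by its most intense tested probe. Values are normalized log2 intensities, on which a difference of 1 is a doubling. The hyperoxic replicate 1 array (hyperoxic 1) stood apart from the rest. Its median raw intensity was 163.6 against 67.4 to 82.3 on the other 8 arrays, 30.6% of its probes were detected against 42.1% to 44.5%, and it correlated with hyperoxic 2 and 3 at 0.951 and 0.964, which correlated with each other at 0.991. The main results are therefore also given without it, and then rest on hyperoxic 2 and 3 alone. The authors' deposited ratios have a median of 1 at 100% of probes over the set of control 1 with hyperoxic 2 and 3, and at 42.7% for the next best set, the 3 hyperoxic arrays. The labels divide those reference arrays between 2 groups, and whether they share 1 condition was not tested. In the raw table the detection p-values placed beside control 2 and 3 follow the intensities of hyperoxic 2 and 3, and those beside hyperoxic 1, 2 and 3 follow control 2, control 3 and hyperoxic 1. Whether labels were exchanged between these arrays was not tested, and an exchange would change what the hyperoxic values stand for; the groups here are those of the titles. Xist was high and the Y-linked Eif2s3y low on control 1, control 3 and hypoxic 2, while all hyperoxic arrays had the opposite pattern.

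Probes were called in both directions. With limma and Benjamini-Hochberg adjustment at 0.05, 222 probes (1.13% of those tested) were higher at P12.5 and 111 (0.566%) were lower. Among the calls 66.7% were rises. That share depended on the filter and the scaling. Detection on every array of any 1 group was enough for a probe to be tested, so that some entered through P12.5 alone. With only the 12907 probes detected on all 6 arrays the counts were 189 higher and 215 lower, 46.8% rises. The share was 98.4% when arrays were centred on their medians and 100% in the deposited ratios. The median difference of all tested probes was 0.05 in the main fit, 0.31 after median centring and 0.20 in the deposited ratios, so a fall in the main fit is a fall relative to the bulk of the genes. Counted by gene, 131 were higher (1.20%) and 83 were lower (0.758%). Of these, 54 rose and 11 fell by 2-fold or more. Of the 131 rises 66 were detected on all 6 arrays and 19 on no hyperoxic array, while 81 of the 83 falls were detected on all 6. Adm, Hif1a, Fosl2, Osmr, Lgals3, Ak4, Plod2, Socs3, Stc2 and E2f1, given below, were detected on 2 of 3 hyperoxic arrays. Where hyperoxic arrays were undetected the size of a rise is uncertain. In all 214 called genes the P12.5 arrays lay wholly above or wholly below the hyperoxic arrays. Such separation alone was common, with 12.7% of all genes separated upward and 12.4% downward. Without hyperoxic 1 the counts were 972 probes higher (4.95%) and 927 lower (4.72%), or 583 genes (5.33%) and 550 genes (5.02%), and all 333 probes called with it were still called, with the same sign. For the 80 called genes named, the difference without hyperoxic 1 was between 0.743 and 1.29 times the difference with it. A call with all arrays favours genes in which hyperoxic 1 lay near hyperoxic 2 and 3, so this agreement says little about that array. Hyperoxic 1 was nearer to the P12.5 mean than to the mean of hyperoxic 2 and 3 in 5 of the 214 called genes. Among all genes the share was 51.9%. List counts below are to be read beside these shares: 1.20% higher and 0.758% lower with all arrays, 5.33% and 5.02% without hyperoxic 1. Other single arrays also moved the counts by over 1.5 times. The 333 calls became 48 without hypoxic 1, 87 without hypoxic 2, 56 without hypoxic 3 and 94 without hyperoxic 3. Several list counts also fell when these arrays were left out, and the ranges stand beside the lists with several calls.

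**Figure D1:**
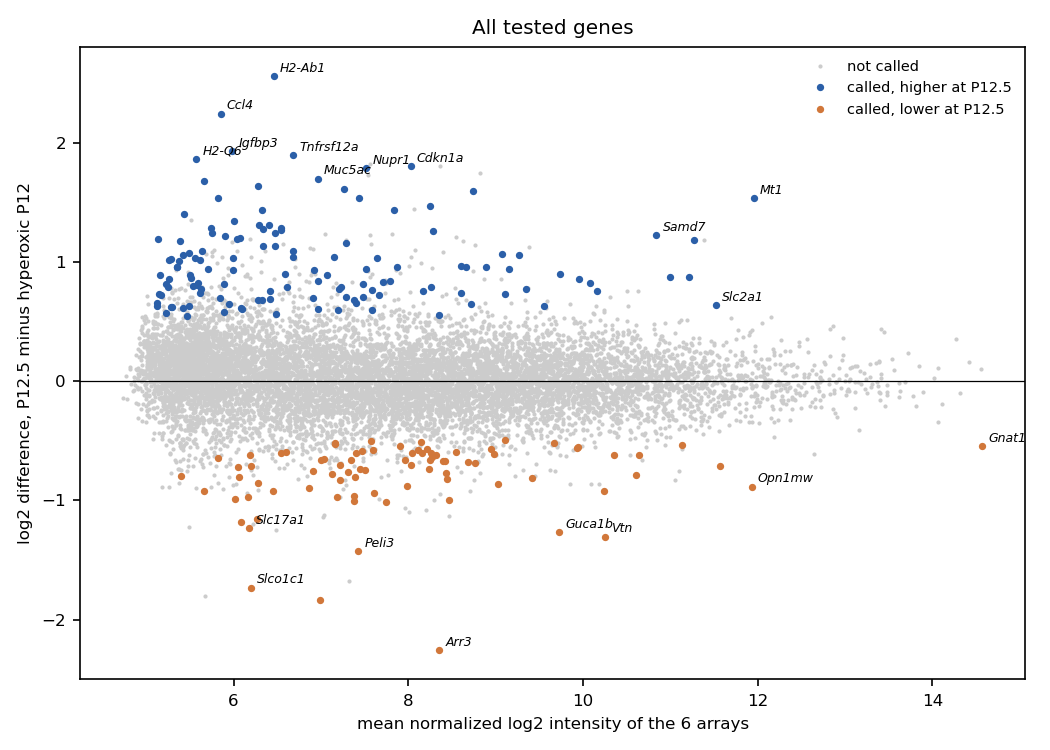
Log2 difference between P12.5 and hyperoxic P12 (vertical axis) against the mean normalized log2 intensity of the 6 arrays (horizontal axis), 1 point for each of 10948 genes, with called genes in colour. The 131 called rises include many dim genes, and the 83 called falls reach from dim genes to Gnat1, the brightest gene named.

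Genes of oxygen sensing were among the rises. Of 8 tested genes for HIF subunits, hydroxylases and Vhl, 3 were higher and none lower, against 1.20% of all genes higher, and the list median was 0.71 (0.63 without hyperoxic 1) beside 0.03 for all genes (0.01). Leaving out 1 array at a time gave 1 to 4 higher. Some members, such as Egln3, were tested because they were detected at P12.5; with detection on all 6 arrays required, 5 were tested, 1 was higher and the median was 0.12. Egln3, a prolyl hydroxylase that HIF itself induces, was at 4.95, 5.16 and 5.06 on hyperoxic 1 to 3 and at 6.85, 6.38 and 6.55 at P12.5. The P12.5 arrays were all well above the hyperoxic ones and above the controls, which read 5.02 to 5.52. The difference was 1.54 ± 0.16 (SE, limma adjusted p = 0.0027), a 2.91-fold rise, and 1.57 ± 0.18 without hyperoxic 1. Egln3 was detected on 1 of 3 hyperoxic arrays with this probe, so the size of the rise is uncertain. A further Egln3 probe differed by 0.54. Egln1, the main oxygen sensor among these enzymes, was at 8.49, 8.55 and 8.58 in hyperoxic retinas and at 9.60, 9.63 and 9.58 at P12.5. Its replicates were tight in both groups, and it rose by 1.06 ± 0.14 (limma adjusted p = 0.00764; 1.03 without hyperoxic 1). The third called member was Hif1a, which encodes the oxygen-labile HIF-1 alpha subunit. It was at 4.82, 6.04 and 5.53 in hyperoxic retinas and at 7.24, 6.94 and 7.12 at P12.5, with hyperoxic 1 the lowest of the 6. The difference was 1.64 ± 0.27 (limma adjusted p = 0.0217) and 1.35 ± 0.18 without hyperoxic 1. The annotation gives no RefSeq mRNA for that probe, and the Hif1a probe that it ties to a RefSeq mRNA was detected on 0 arrays, so the value rests on a probe of uncertain target. Arnt, the shared partner subunit, differed by 0.01, and Vhl by 0.60 with hyperoxic 1 and 0.16 without it; neither passed the test.

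Of 32 tested HIF targets outside glycolysis, 7 were higher and none lower, against 1.20% of all genes higher. Egln1 and Egln3, given above, are among these 7, so the counts of the lists overlap. In 21 of the 32 the P12.5 arrays lay wholly above the hyperoxic ones, against 12.7% of all genes. The list median was 0.52. Without hyperoxic 1 the list median was 0.42 and 13 members were higher, against 5.33% of all genes. Without 1 of the other arrays 2 to 8 were higher, and of the 24 members detected on all 6 arrays 5 were higher, with a median of 0.36. Adm encodes adrenomedullin, a peptide that widens vessels and acts on endothelium. It was at 5.05, 5.48 and 5.34 in hyperoxic retinas and at 6.66, 6.43 and 6.45 at P12.5. Controls (5.08 to 5.50) overlapped the hyperoxic arrays and not the P12.5 arrays, and Adm rose by 1.22 ± 0.15 (limma adjusted p = 0.00631; 1.16 without hyperoxic 1). Hmox1, the haem-degrading enzyme, went from 5.94, 5.55 and 5.77 to 7.26, 6.84 and 7.09. Even its lowest P12.5 array exceeded the highest of the 6 P12 arrays, at 6.18, and the rise was 1.31 ± 0.17 (limma adjusted p = 0.00729; 1.45 without hyperoxic 1). Gys1, glycogen synthase, was at 5.60, 5.97 and 6.14 in hyperoxic retinas and at 7.00, 7.07 and 7.05 at P12.5. The P12.5 values were nearly alike, and the difference was 1.14 ± 0.16 (limma adjusted p = 0.0106; 1.01 without hyperoxic 1). Plod2, a collagen lysyl hydroxylase, rose by 1.20 ± 0.18 (limma adjusted p = 0.0139; 1.14 without hyperoxic 1), though a second tested probe differed by 0.18. Stc2, a secreted stanniocalcin, rose by 0.89 ± 0.12 (limma adjusted p = 0.00764; the same without hyperoxic 1). Members that passed only without hyperoxic 1 included Loxl2, Gbe1, P4ha2, Lox, Bhlhe40 and Tfrc. Others stayed near the median of all genes, among them Car12 at -0.07, Rora at -0.02 and Ndrg1 at 0.22.

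Vegfa, the main vessel growth factor of the ischaemic retina, was bright on every array. It was at 9.69, 10.24 and 9.94 in hyperoxic retinas, at 10.68, 10.73 and 10.56 at P12.5 and at 10.26, 9.62 and 9.99 in controls. The P12.5 arrays lay above all 6 P12 arrays, but the difference of 0.70 ± 0.18 missed the threshold (limma adjusted p = 0.0896), also without hyperoxic 1 (0.57 ± 0.17, adjusted p = 0.0585).

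Promoters are shown for the genes of the HIF target and glycolysis lists with the largest called rises, because they are where HIF would be looked for. Of the 6 largest, 4 had an entry among the RefSeq promoters of build GRCm38.p6, from 250 bases before to 50 after the annotated start. Capitals mark ACGTG or GCGTG, or their reverse complements CACGT and CACGC for a match on the other strand; no matches overlap here.
Egln3, chr12:54203825-54204124, minus strand: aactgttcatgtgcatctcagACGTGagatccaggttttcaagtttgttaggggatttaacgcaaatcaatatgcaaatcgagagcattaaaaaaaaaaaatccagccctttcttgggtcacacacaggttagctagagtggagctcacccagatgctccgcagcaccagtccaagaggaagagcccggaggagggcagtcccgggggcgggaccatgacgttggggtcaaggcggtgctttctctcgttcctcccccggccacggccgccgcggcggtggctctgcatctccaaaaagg
Pdk1, chr2:71872974-71873273, plus strand: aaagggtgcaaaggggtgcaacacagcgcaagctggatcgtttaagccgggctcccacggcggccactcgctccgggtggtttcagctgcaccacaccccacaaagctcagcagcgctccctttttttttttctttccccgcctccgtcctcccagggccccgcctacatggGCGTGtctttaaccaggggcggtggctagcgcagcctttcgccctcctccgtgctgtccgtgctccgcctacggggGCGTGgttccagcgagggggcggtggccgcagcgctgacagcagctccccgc
Adm, chr7:110627407-110627706, plus strand: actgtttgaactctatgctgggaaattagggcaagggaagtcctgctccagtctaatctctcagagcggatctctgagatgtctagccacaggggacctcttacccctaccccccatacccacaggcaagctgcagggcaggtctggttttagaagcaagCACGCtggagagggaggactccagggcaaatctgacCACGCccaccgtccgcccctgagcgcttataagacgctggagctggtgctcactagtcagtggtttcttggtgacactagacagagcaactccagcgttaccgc
Gys1, chr7:45434589-45434888, plus strand: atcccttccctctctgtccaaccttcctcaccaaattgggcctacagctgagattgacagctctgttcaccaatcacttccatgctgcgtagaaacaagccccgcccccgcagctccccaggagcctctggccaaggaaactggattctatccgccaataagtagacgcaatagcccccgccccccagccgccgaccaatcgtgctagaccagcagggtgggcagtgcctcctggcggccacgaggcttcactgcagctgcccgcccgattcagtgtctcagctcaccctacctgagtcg
Egln3 held 1 match, at -229 from the start. Pdk1 held 2, at -78 and -2, and Adm held 2 on the other strand, at -90 and -54. Gys1 held 0, and so did the window of a second start listed for Pdk1. Of 32851 promoters of this length, 43.8% held either motif, so a match in these windows is common.

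Genes for glucose uptake and for a kinase that holds back pyruvate dehydrogenase rose, while most enzymes of glycolysis itself did not pass the test. Of 23 tested genes, 5 were higher and none lower, against 1.20% of all genes higher. Without hyperoxic 1, 6 were higher, against 5.33% of all genes, and without any other array 1 or 2. The list median was 0.22 (0.23 without hyperoxic 1). Pdk1, the kinase that switches off pyruvate dehydrogenase, was at 6.58, 6.81 and 6.59 in hyperoxic retinas and at 8.24, 8.06 and 8.30 at P12.5. Controls were intermediate, at 7.11, 7.30 and 7.28. The rise was 1.54 ± 0.12 (limma adjusted p = 6.18e-04; 1.5 without hyperoxic 1), and against the control it was 0.97 (adjusted p = 0.0106). Slc2a1 and Slc2a3 encode the glucose transporters GLUT1 and GLUT3. Slc2a1 went from 11.01, 11.27 and 11.33 to 11.97, 11.74 and 11.82, and Slc2a3 from 10.47, 10.63 and 10.58 to 11.50, 11.30 and 11.49. Neither transporter overlapped between groups, and they rose by 0.64 ± 0.12 (limma adjusted p = 0.0397) and 0.87 ± 0.12 (adjusted p = 0.0113), or by 0.55 and 0.82 without hyperoxic 1. Hk2, the inducible hexokinase, read 8.87, 9.43 and 9.57 against 10.20, 10.22 and 10.16. Hyperoxic 1 was lowest by far, and the rise fell from 0.90 ± 0.18 (limma adjusted p = 0.0453) to 0.69 ± 0.13 without it (adjusted p = 0.0103). Pfkfb3, which makes the activator of phosphofructokinase, rose by 0.77 ± 0.14 over the hyperoxic retinas (limma adjusted p = 0.0351), while its difference from the control was 0.31 (adjusted p = 0.258). Over the 16 other settings given at the end, Slc2a1 and Hk2 each lost the call in 10 and Pfkfb3 in 9. Pdk1 lost it in 1 and Slc2a3 in 3. Ldha differed by 0.22, Gapdh by 0.11, Pkm by 0.18 and Aldoa by 0.16, none past the test, and Ldhb by -0.42 (adjusted p = 0.084). Among the largest rises outside the lists was Ak4, a mitochondrial adenylate kinase, at 1.27 ± 0.22 (limma adjusted p = 0.0263; 1.03 without hyperoxic 1). Of 48 tested genes of oxidative phosphorylation none passed in either direction with all arrays, and their median was -0.07. Without hyperoxic 1, 3 passed as lower (Ndufc1, Cycs and Atp5e), near the 5.02% of all genes lower in that fit.

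Apart from Adm, ligands and receptors of vessel growth did not pass the test. Of 28 tested, 1 was higher and none lower, near the 1.20% of all genes, and the median was -0.03. Angpt2, which loosens vessel walls, was at 6.84, 6.74 and 6.80 in hyperoxic retinas and at 7.25, 7.25 and 7.14 at P12.5. All P12.5 arrays were above all P12 arrays by a small margin, and the difference of 0.42 ± 0.12 had a limma adjusted p of 0.104 with hyperoxic 1 and 0.0473 without it. The VEGF receptor Kdr, measured only on a probe with no RefSeq mRNA in the annotation, differed by 0.39 ± 0.20 (0.17 without hyperoxic 1), and the receptor Flt1 by -0.06. Without hyperoxic 1, Pdgfrb, Cxcl12, Ramp2 and Aplnr passed the test as lower. Igfbp3, a binding protein for insulin-like growth factors, was the 1 called gene of 24 growth factors and binding proteins tested. It was at 4.46, 5.45 and 5.14 in hyperoxic retinas and at 7.08, 6.76 and 7.01 at P12.5, a rise of 1.93 ± 0.24 (limma adjusted p = 0.006; 1.72 without hyperoxic 1). Igfbp3 was detected on 2 of 3 hyperoxic arrays with this probe. Its other tested probe rose by 1.12 and was detected on 0 hyperoxic arrays, so the size of the rise is uncertain. Fgf2 differed by -0.05 ± 0.12, a direction that turned under median centring (0.10).

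Among 21 tested genes of gliosis and LIF/STAT3 signalling, 6 were higher and none lower, against 1.20% of all genes higher. The number higher was 9 without hyperoxic 1, against 5.33% of all genes. It was 4 without hyperoxic 2, 1 without hyperoxic 3, 2 without hypoxic 2 and 0 without hypoxic 1 or hypoxic 3. In the list 11 had P12.5 arrays wholly above the hyperoxic ones, against 12.7% of all genes. The list median was 0.37 (0.34 without hyperoxic 1). Osmr, the oncostatin M receptor, was at 5.48, 6.11 and 5.51 in hyperoxic retinas and at 6.97, 6.88 and 7.09 at P12.5. Every P12.5 array was above every P12 array, and the rise was 1.28 ± 0.18 (limma adjusted p = 0.00914; 1.21 without hyperoxic 1). Downstream of such receptors, Stat3 went from 9.31, 9.22 and 9.17 to 9.81, 10.01 and 9.78. Its inhibitor Socs3, itself a target of Stat3, went from 5.70, 5.38 and 5.35 to 6.36, 6.70 and 6.46. Neither gene overlapped between groups, with rises of 0.63 ± 0.11 (limma adjusted p = 0.0327) and 1.03 ± 0.19 (adjusted p = 0.0364), or 0.67 and 1.20 without hyperoxic 1. Gfap, the filament protein of reactive glia and astrocytes, was at 5.99, 6.31 and 5.91 in hyperoxic retinas and at 6.91, 6.77 and 6.60 at P12.5. It rose by 0.69 ± 0.14, close to the threshold (limma adjusted p = 0.0488; 0.0218 without hyperoxic 1), and differed from the control by 0.47 (adjusted p = 0.117). The filament gene Nes was detected on all P12.5 arrays and on 0 of 6 P12 arrays, at least a 1.36-fold rise (limma adjusted p = 0.0156). Cp, the copper-carrying ferroxidase, rose by 0.74 ± 0.13 (limma adjusted p = 0.0263). Nes was tested because it was detected at P12.5, and Osmr and Socs3 were detected on 2 of 3 hyperoxic arrays. Of the 6 called genes, Stat3, Gfap and Cp were detected on all 6 arrays. Lif, the ligand, differed by 0.27 ± 0.15 (adjusted p = 0.348), and Vim by 0.30. Of 20 tested marker genes of Müller glia, 2 were lower and none higher (3 and 1 without hyperoxic 1, none in either direction without any other array), with a median of -0.12 that became 0.19 under median centring and 0.16 with the deposited ratios. The water channel Aqp4 went from 8.68, 8.37 and 8.33 to 7.78, 7.88 and 7.91, a fall of 0.60 ± 0.13 (limma adjusted p = 0.0489), and the chaperone Clu from 11.30, 11.49 and 11.42 to 10.93, 10.87 and 10.80, a fall of 0.54 ± 0.11 (adjusted p = 0.0455). Without hyperoxic 1 these differences were -0.49 and -0.58. Further tested Aqp4 probes differed by -0.18 (detected on all 9 arrays) and -0.63 (detected on 6), and neither passed. In whole retina fewer cells of a type and less RNA per cell cannot be told apart.

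**Figure D2:**
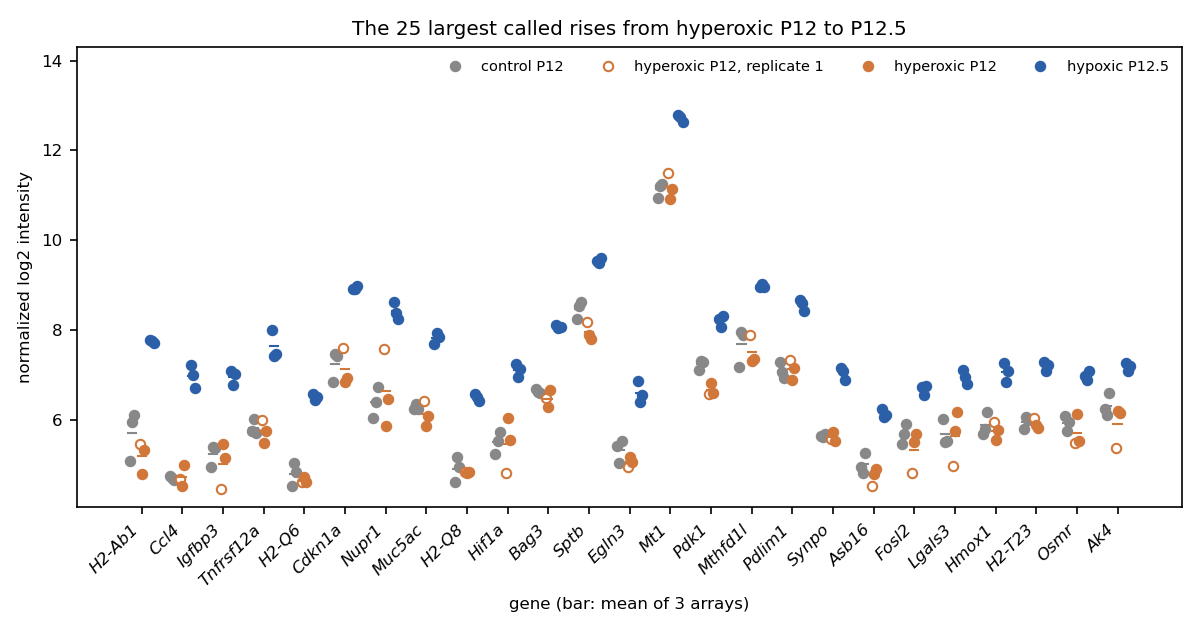
Normalized log2 intensity (vertical axis) of the 25 largest called rises (horizontal axis) on each of the 9 arrays, with short bars at group means and hyperoxic replicate 1 as an open circle. All P12.5 points lie above all hyperoxic points, and hyperoxic 1 is the highest hyperoxic point for Nupr1 and the lowest for Igfbp3, Hif1a, Lgals3 and Ak4.

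Cdkn1a, the cell cycle inhibitor p21, was at 7.61, 6.84 and 6.93 in hyperoxic retinas and at 8.90, 8.91 and 8.97 at P12.5. The P12.5 replicates were nearly alike, and the rise of 1.80 ± 0.22 (limma adjusted p = 0.006) grew to 2.04 ± 0.17 without hyperoxic 1. It was the 1 called member of 21 tested p53 targets and cell death genes, whose median was 0.10; Mdm2, another p53 target, differed by 0.09. Bag3, a co-chaperone induced by protein damage, went from 6.47, 6.27 and 6.65 to 8.12, 8.05 and 8.06, a rise of 1.61 ± 0.12 (limma adjusted p = 5.26e-04; 1.62 without hyperoxic 1). It was likewise the 1 called gene of 20 heat shock chaperones, with Hspa1b at 0.33 and Hsph1 at -0.48. The metallothioneins Mt1 and Mt2, which bind zinc and copper, both rose. Mt1 started from a bright level and Mt2 from a dim one, detected on 2 of 3 hyperoxic arrays. Mt1 was at 11.50, 10.91 and 11.14 against 12.79, 12.75 and 12.63, and Mt2 at 5.76, 5.80 and 5.74 against 7.06, 6.79 and 6.85. Both pairs of groups were far apart, by 1.54 ± 0.16 (limma adjusted p = 0.00242) and 1.13 ± 0.10 (adjusted p = 0.00141), or by 1.70 and 1.17 without hyperoxic 1. Mt3, the brain form, differed by -0.54 and did not pass. Apart from Hmox1, the classic targets of the antioxidant factor NRF2 did not pass the test, with Nqo1 at -0.10, Srxn1 at 0.06, Gclm at -0.09 and Txnrd1 at 0.04. Txnip, which binds thioredoxin and limits glucose uptake, went from 8.42, 8.03 and 8.11 to 9.31, 8.97 and 9.14, a rise of 0.95 ± 0.19 (limma adjusted p = 0.0433). Its difference from the control was 0.49 (adjusted p = 0.193). Prdx3, the mitochondrial peroxiredoxin, went the other way and fell by 0.57 ± 0.11 (limma adjusted p = 0.0425). Nupr1, a stress-induced nuclear protein, was at 7.57, 5.86 and 6.45 in hyperoxic retinas and at 8.62, 8.37 and 8.25 at P12.5. Hyperoxic 1 was far above the others, and the rise was 1.79 ± 0.36 (limma adjusted p = 0.0458) with it and 2.28 ± 0.22 without it. With Stc2 it made 2 called genes of 26 in the unfolded protein and ATF4 list, whose median was 0.19 (0.05 without hyperoxic 1).

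Among AP-1 and immediate early genes 3 of 18 were higher and none lower, against 1.20% of all genes higher. The list median was 0.21. Without hyperoxic 1, 5 were higher, against 5.33% of all genes, and the list median was 0.28. Without 1 of the other arrays 1 to 3 were higher. Ccn2, a matrix-associated growth regulator, was at 7.74, 7.62 and 7.61 in hyperoxic retinas and at 9.05, 8.80 and 8.89 at P12.5. The groups were tight and far apart, and it rose by 1.26 ± 0.14 (limma adjusted p = 0.0035). The AP-1 subunit Fosl2 went from 4.82, 5.50 and 5.67 to 6.72, 6.55 and 6.76, a rise of 1.35 ± 0.21 (limma adjusted p = 0.0189) that was 1.14 ± 0.15 without hyperoxic 1. Its partner Jun rose by 0.79 ± 0.13 (limma adjusted p = 0.0232). Fos differed by 0.90 and passed only without hyperoxic 1, while Egr1 differed by -0.41 and Arc by -0.08. Plat, the tissue plasminogen activator, went from 7.56, 7.35 and 7.26 to 8.44, 8.23 and 8.38 and rose by 0.96 ± 0.13 (limma adjusted p = 0.00729). The basement membrane genes Col4a1 (-0.21), Nid1 (-0.42) and Hspg2 (-0.15) did not pass. E2f1, a driver of entry into S phase, was the 1 called gene of 20 in the cell cycle list, at 0.81 ± 0.14 (limma adjusted p = 0.0274), with Mki67 at 0.19 and Pcna at 0.44. Without hyperoxic 1, 3 genes of that list were higher and 1 lower, and without any other array none passed. Of 30 genes of basement membrane and matrix 3 were higher and 1 lower, or 7 and 1 without hyperoxic 1.

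H2-Ab1, a chain of the MHC class II molecule, was at 5.44, 4.78 and 5.31 in hyperoxic retinas and at 7.78, 7.74 and 7.70 at P12.5. Its 3 P12.5 arrays differed by less than 0.1 from each other and stood 2.56 ± 0.26 higher (limma adjusted p = 0.00237; 2.79 without hyperoxic 1). It was detected on 1 of 3 hyperoxic arrays, and its other tested probes on 0, so the size of the rise is uncertain. Class I genes of the list were also called. H2-T23 went from 6.03, 5.88 and 5.81 to 7.27, 7.07 and 7.22, a rise of 1.28 ± 0.12 (limma adjusted p = 0.00141). H2-Q6 and H2-K1 were detected on all P12.5 arrays and on no P12 array, with rises of at least 2.27-fold and 1.22-fold (adjusted p = 5.26e-04 and 0.00243). H2-Q8, outside the list, rose by at least 2.26-fold (adjusted p = 9.82e-04). These class I genes lie together on chromosome 17 and are close copies, so a probe may read more than its named gene. The other 11 of 15 tested genes of antigen presentation did not pass, among them B2m (-0.14), Tap2 (-0.14), Psmb8 (-0.26) and the class II regulator Ciita (-0.31), and the list median was 0.06. With detection on all 6 arrays required, 1 of 5 was higher and the median was -0.14. Of 15 interferon-stimulated genes none passed, and Irf1 differed by 0.16 and Stat2 by -0.13.

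The chemokine Ccl4, which draws in myeloid cells, was not detected in hyperoxic retinas (4.67, 4.52 and 4.99) and controls (4.65 to 4.74). It was at 7.22, 7.00 and 6.70 at P12.5, where it was detected on all arrays, at least a 3.14-fold rise (limma adjusted p = 5.26e-04). The related chemokine Ccl3 was also detected at P12.5 alone, with 5.81, 5.73 and 5.66 at P12.5 and at least a 1.33-fold rise (adjusted p = 0.00631). Tnfrsf12a, the receptor of the cytokine TWEAK, went from 5.99, 5.48 and 5.73 to 8.0, 7.43 and 7.47, a rise of 1.90 ± 0.19 (limma adjusted p = 0.00218; 2.07 without hyperoxic 1). These were the 3 called genes of 15 tested, with a list median of 0.14 (-0.17 without hyperoxic 1). Ccl3 and Ccl4 were tested because they were detected at P12.5; of the 9 members detected on all 6 arrays 1 was higher, and their median was -0.42. Without hyperoxic 1, Il18, Vcam1, Tnfaip3, Cxcl12 and Il33 passed as lower. Markers of microglia and macrophages, the cells best known for Ccl3 and Ccl4, did not pass in either direction with all arrays. Without hyperoxic 1, where 5.33% of all genes were higher, Trem2, Laptm5 and Fcer1g of the 12 passed as higher. The median of these markers was then 0.19 (0.12 with hyperoxic 1). Their mean level over 12 tested genes was 6.46, 6.14 and 6.28 on the hyperoxic arrays and 6.49, 6.37 and 6.34 at P12.5, with Aif1 at 0.23, Cx3cr1 at -0.39 and C1qa at -0.07. Lgals3, a galectin of activated macrophages and glia, rose by 1.31 ± 0.27 (limma adjusted p = 0.0468; 1.01 ± 0.19 without hyperoxic 1).

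Pdlim1, an adaptor that links actin to the membrane, was at 7.33, 6.89 and 7.15 in hyperoxic retinas and at 8.66, 8.59 and 8.41 at P12.5. The groups stood well apart, and it rose by 1.43 ± 0.15 (limma adjusted p = 0.00242; 1.53 without hyperoxic 1). Sptb, a spectrin chain under the membrane, rose by 1.59 ± 0.14 (adjusted p = 0.00115), but a second, equally well detected probe differed by 0.02. Synpo, an actin-binding protein, rose by 1.43 ± 0.11 (adjusted p = 6.18e-04), on a probe without a RefSeq mRNA in the annotation. Mthfd1l, a mitochondrial enzyme of one-carbon metabolism, went from 7.88, 7.30 and 7.35 to 8.96, 9.03 and 8.96, a rise of 1.47 ± 0.22 (limma adjusted p = 0.0142; 1.65 without hyperoxic 1). Muc5ac, annotated as a gel-forming mucin, went from 6.41, 5.87 and 6.07 to 7.68, 7.94 and 7.83 (1.70 ± 0.15, limma adjusted p = 9.82e-04), while a second tested probe differed by 0.36. Asb16, a member of a family of ubiquitin ligase adaptors, was detected on no hyperoxic array and rose at least 1.76-fold (limma adjusted p = 0.00242). Its probe has no RefSeq mRNA in the annotation, and the Asb16 probe tied to a RefSeq mRNA was detected on 0 arrays.

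Photoreceptor genes were among the falls. Of 13 tested cone markers 3 were lower and none higher, against 0.758% of all genes lower, and 1 to 3 were lower when 1 array at a time was left out. The list median was -0.18 (-0.25 without hyperoxic 1), but 0.05 after median centring and 0.02 in the deposited ratios. Arr3, cone arrestin, was at 9.07, 9.57 and 9.81 in hyperoxic retinas, at 7.04, 7.23 and 7.40 at P12.5 and at 9.55, 8.49 and 8.51 in controls. P12.5 was below every P12 array, by 2.26 ± 0.29 from the hyperoxic mean (limma adjusted p = 0.00657; a fall of 4.78-fold), and its second probe fell by 1.79. Opn1mw, the middle-wavelength cone opsin, went from 12.39, 12.36 and 12.37 to 11.47, 11.53 and 11.47. The replicates were within 0.1 of each other in both groups and the fall was 0.88 ± 0.10 (limma adjusted p = 0.00304; the same without hyperoxic 1). Pde6h, the inhibitory subunit of the cone phosphodiesterase, fell by 0.71 ± 0.14 (limma adjusted p = 0.0422), and its difference from the control was -0.35 (adjusted p = 0.204). The short-wavelength opsin Opn1sw differed by -0.25 ± 0.13 (adjusted p = 0.325), and that direction turned under median centring (0.02). Gnat2, cone transducin, differed by -0.30 and Gnb3 by -0.02.

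Of 28 tested rod markers, 2 were lower and 1 higher, against 0.758% and 1.20% of all genes. In 11 the P12.5 arrays lay wholly below the hyperoxic ones, against 12.4% of all genes. The list median was -0.13, and 0.17 and 0.18 under the other scalings. Without hyperoxic 1 the list median was -0.19 and 7 were lower, against 5.02% of all genes. Without 1 of the other arrays 1 to 3 were lower. Guca1b, which activates guanylate cyclase when calcium falls in light, was at 10.32, 10.28 and 10.47 in hyperoxic retinas and at 8.91, 9.33 and 9.04 at P12.5. Controls were at 10.01 to 10.44, above all P12.5 arrays, and the fall was 1.27 ± 0.15 (limma adjusted p = 0.00469; 1.28 without hyperoxic 1). Gnat1, rod transducin and among the brightest genes on the array, went from 14.89, 14.73 and 14.89 to 14.22, 14.38 and 14.28, with a fitted fall of 0.55 ± 0.11 (limma adjusted p = 0.0468). Control 1, hyperoxic 1 and hyperoxic 3 read the same value for it, since quantile scaling gives equal ranks equal values, so the size of this fall is uncertain. Its dimmer second probe differed by -1.11 and did not pass. Samd7, a photoreceptor repressor protein, moved the other way. It was at 10.30, 10.22 and 10.16 in hyperoxic retinas and at 11.50, 11.28 and 11.59 at P12.5, and rose by 1.23 ± 0.11 (limma adjusted p = 0.00141), with 1.48 on its second probe. The transcription factors Nrl (-0.12) and Crx (-0.09), the phosphodiesterase subunits Pde6a (0.09) and Pde6b (-0.23) and the arrestin Sag (0.16) did not pass. Rd3, which carries guanylate cyclase to the outer segment, fell by 0.82 ± 0.14 (limma adjusted p = 0.0252) on its brightest probe, while another differed by 0.22 in the opposite direction.

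Beyond the photoreceptors, single neuronal genes fell. Unc13c, a synaptic vesicle priming factor, went from 8.06, 8.46 and 8.21 to 7.49, 7.11 and 7.10, a fall of 1.01 ± 0.16 (limma adjusted p = 0.017). Its probe has no RefSeq mRNA in the annotation, and it was the 1 called gene of 27 tested in the synapse list. Without hyperoxic 1, the ribbon synapse genes Cabp4, Cacna1f and Cplx4 also passed as lower, which made 4 of 27, against 5.02% of all genes. Lrtm1, the 1 called gene of 19 bipolar markers, fell by 0.66 ± 0.13 (limma adjusted p = 0.0422). Without hyperoxic 1, 5 bipolar markers were lower, against 5.02% of all genes. They were Grm6, Nyx, Scgn and Tacr3 beside Lrtm1. Pvalb, a calcium-binding protein of inner retinal neurons, was at 7.64, 7.65 and 7.73 in hyperoxic retinas, at 6.67, 6.87 and 6.57 at P12.5 and at 7.42, 7.18 and 7.01 in controls. The hyperoxic arrays were the highest of the 3 groups, and the fall of 0.97 ± 0.13 (limma adjusted p = 0.00906) compares with a difference of -0.50 from the control (adjusted p = 0.0883). Scn2b, a sodium channel subunit, fell by 0.82 ± 0.17 (limma adjusted p = 0.0488), or by 1.02 ± 0.12 without hyperoxic 1. Its probe has no RefSeq mRNA in the annotation. The Scn2b probe tied to a RefSeq mRNA was detected on 2 of 9 arrays and was not tested. Of 14 ganglion cell markers and 17 of horizontal and amacrine cells none passed with all arrays, with medians of -0.04 and 0.07; 1 of the latter was higher and 1 lower without hyperoxic 1.

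**Figure D3:**
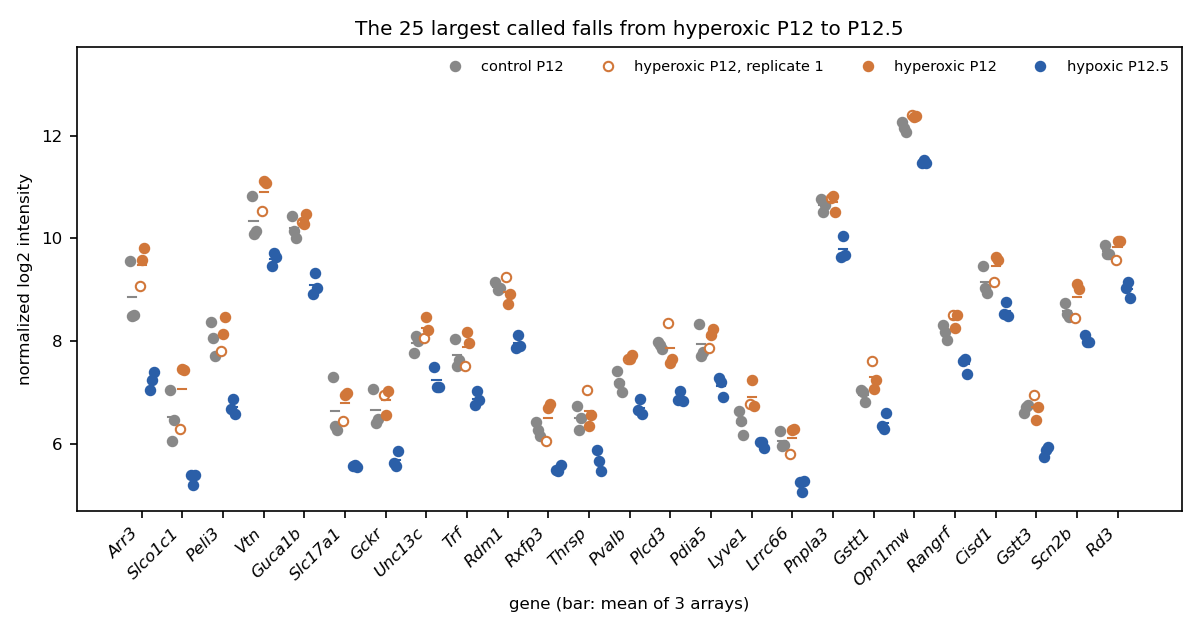
Normalized log2 intensity (vertical axis) of the 25 largest called falls (horizontal axis) on each of the 9 arrays, drawn as for the rises. All P12.5 points lie below all hyperoxic points, and for Slco1c1, Vtn, Trf and Scn2b hyperoxic 1, the open circle, is the hyperoxic point nearest to P12.5.

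For vascular genes the outcome depended on hyperoxic 1. Of 25 tested endothelial markers 1 was lower and none higher, with a median of -0.52. Without hyperoxic 1, 10 were lower, against 5.02% of all genes, and the list median was -0.81. It stayed negative when arrays were centred on their medians (-0.17) or the deposited ratios were used (-0.20). The mean level of these 25 genes was 6.74, 7.74 and 7.83 on hyperoxic 1 to 3, 6.97, 7.04 and 6.95 at P12.5 and 7.73, 6.89 and 6.89 on control 1 to 3. Hyperoxic 1 thus lay below the P12.5 arrays and hyperoxic 2 and 3 above them, and the high arrays are the 3 over which the deposited ratios have a median of 1. Slco1c1, the thyroxine transporter of barrier-forming vessels, was at 6.29, 7.45 and 7.44 in hyperoxic retinas and at 5.40, 5.19 and 5.39 at P12.5. It was below every P12 array at P12.5, and fell by 1.73 ± 0.32 (limma adjusted p = 0.0362), or by 2.19 ± 0.22 without hyperoxic 1. Pecam1, a junction protein of all endothelium, was at 5.68, 7.57 and 7.74 against 6.70, 6.64 and 6.52, so that hyperoxic 1 was the lowest and hyperoxic 2 and 3 the highest of the 6. Its difference was -0.38 ± 0.50 (limma adjusted p = 0.706) with hyperoxic 1 and -1.04 ± 0.29 (adjusted p = 0.0466) without it. Slc38a5, an amino acid transporter of endothelium, was at 6.91, 8.73 and 8.84 against 6.34, 6.81 and 6.31, a difference of -1.67 ± 0.59 (limma adjusted p = 0.173) that passed without hyperoxic 1 (-2.30 ± 0.45). Plvap, a protein of leaky vessels, differed by 0.59 (adjusted p = 0.0896).

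Pericyte and smooth muscle markers followed a similar division of arrays. Their mean level over 9 genes was 6.22, 7.11 and 7.09 in hyperoxic retinas, 6.45, 6.48 and 6.40 at P12.5 and 7.05, 6.31 and 6.45 in controls. The median difference was -0.16 with hyperoxic 1 and -0.58 without it. Vtn, vitronectin, was the 1 called member, at 10.53, 11.12 and 11.07 against 9.46, 9.71 and 9.64. It fell by 1.30 ± 0.22 (limma adjusted p = 0.025), or by 1.48 ± 0.19 without hyperoxic 1. Trf, the iron carrier transferrin, went from 7.51, 8.18 and 7.96 to 6.75, 7.02 and 6.86 and fell by 1.01 ± 0.19 (limma adjusted p = 0.0379; a fall of 1.19 ± 0.16 without hyperoxic 1). The iron exporter Slc40a1 differed by -1.13 and passed only without hyperoxic 1. Lyve1, a marker of lymphatic endothelium and of some macrophages, was at 6.78, 7.23 and 6.74 against 6.03, 6.03 and 5.92, a fall of 0.92 ± 0.16 (limma adjusted p = 0.0283).

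**Figure D4:**
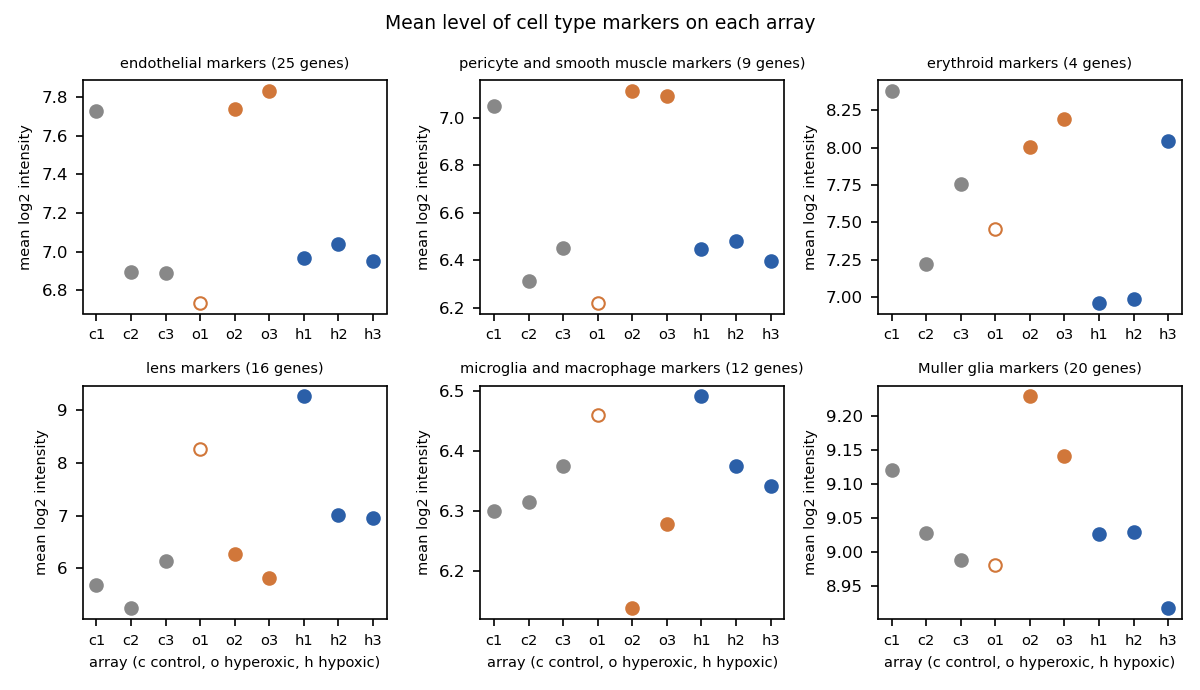
Mean normalized log2 intensity (vertical axes, each with its own range, none starting at 0) of 6 marker lists on each array (horizontal axis), with hyperoxic replicate 1 as an open circle. Endothelial markers are high on control 1, hyperoxic 2 and hyperoxic 3 (7.73 to 7.83) and at 7.04 or below on the other 6, and lens markers are highest on hypoxic 1 and hyperoxic 1.

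Peli3, a ubiquitin ligase of innate immune signalling, was at 7.80, 8.14 and 8.46 in hyperoxic retinas and at 6.68, 6.88 and 6.58 at P12.5. The groups were far apart, and it fell by 1.42 ± 0.20 (limma adjusted p = 0.0109; a fall of 1.59 without hyperoxic 1). Gckr, a regulator of glucokinase, went from 6.96, 6.56 and 7.02 to 5.63, 5.57 and 5.86 and fell by 1.16 ± 0.19 (limma adjusted p = 0.0232; a fall of 1.15 without hyperoxic 1). Rdm1, an RNA- and DNA-binding protein, went from 9.25, 8.72 and 8.92 to 7.86, 8.13 and 7.90 and fell by 1.0 ± 0.15 (adjusted p = 0.0132), with a difference of -1.09 from the control. Pnpla3, a lipase of lipid droplets, and Thrsp, a regulator of fat synthesis, fell by 0.92 ± 0.15 and 0.97 ± 0.20 (limma adjusted p = 0.0196 and 0.0457). The glutathione transferases Gstt1 and Gstt3, neighbours in 1 family on chromosome 10, fell by 0.90 ± 0.16 and 0.86 ± 0.14 (limma adjusted p = 0.0268 and 0.0195), each by 0.76 without hyperoxic 1, which was the highest hyperoxic array for both. Slc17a1, a phosphate transporter, fell by 1.23 ± 0.26, close to the threshold (limma adjusted p = 0.0488), and Rxfp3, a relaxin family receptor, by 0.99 ± 0.18 (adjusted p = 0.0351; a fall of 1.27 without hyperoxic 1). Cisd1, an iron-sulphur protein of the outer mitochondrial membrane, fell by 0.86 ± 0.18 (limma adjusted p = 0.0467; a fall of 1.01 without hyperoxic 1). The falls of Plcd3, Pdia5, Lrrc66 and Rangrf lay between 0.88 and 0.96. Of the mitophagy and autophagy list Gabarapl1, a protein of the autophagosome membrane, was the 1 called gene of 20, and it fell by 0.56 ± 0.11 (limma adjusted p = 0.043). Of 20 genes of cholesterol synthesis and transport Sc5d alone passed, a fall of 0.61 ± 0.12 (adjusted p = 0.041). The list median was -0.19, but 0.15 and 0.12 under the other scalings.

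Clock genes were examined because the groups also differ by 12 hours. Of 18 tested none passed (3 were higher without hyperoxic 1), and the median was 0.03. Per2 was at 8.16, 8.45 and 8.43 in hyperoxic retinas and at 7.97, 8.11 and 8.28 at P12.5, with overlapping groups and a difference of -0.22 ± 0.15 (limma adjusted p = 0.428) that turned under median centring (0.14) and the deposited ratios (0.13). Dbp, a clock output gene of large daily amplitude in many mouse tissues, was at 11.44, 11.51 and 11.65 against 11.14, 11.30 and 11.15. It differed by -0.33 ± 0.12 (limma adjusted p = 0.173), which turned with the deposited ratios (0.07). No member of the Wnt and norrin list (14 tested) or of the histone demethylase list (15 tested, median 0.17) passed with all arrays.

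**Figure D5:**
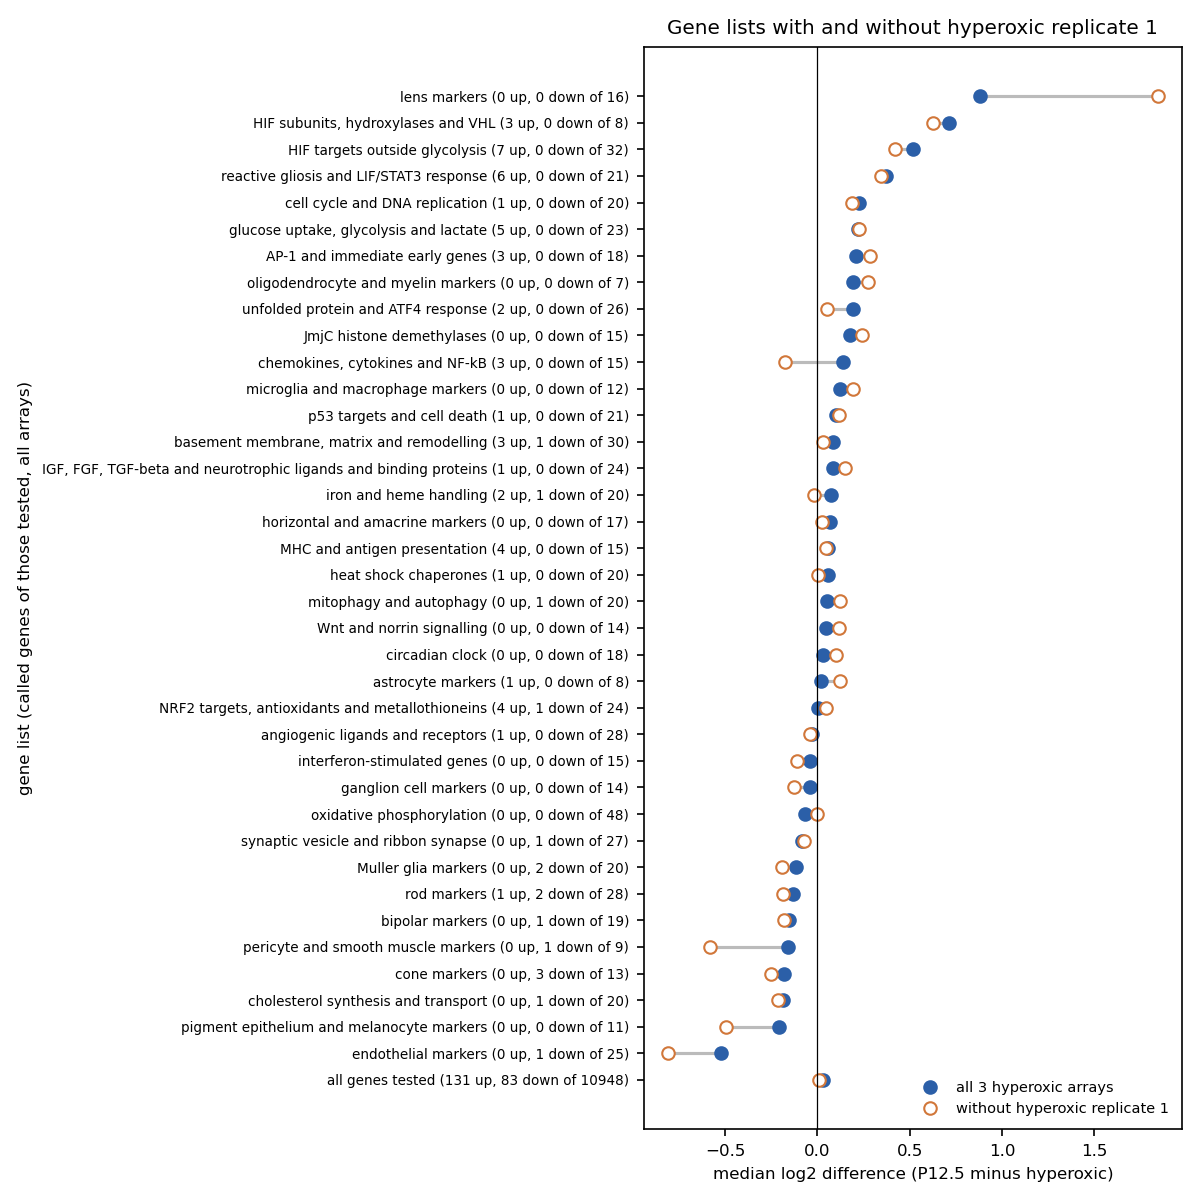
Median log2 difference between P12.5 and hyperoxic P12 (horizontal axis) over the tested genes of the 37 lists with 5 or more tested genes and of all genes (vertical axis), with all 3 hyperoxic arrays (filled) and without hyperoxic 1 (open). The medians of the lens, pericyte, chemokine, pigment epithelium and endothelial lists move most, and under median centring those of the rod, cone, bipolar, Müller glia, cholesterol, synapse, oxidative phosphorylation, angiogenic, ganglion cell and interferon lists turn positive.

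Markers of neighbouring tissue varied between single arrays. The mean level of 16 lens genes was 8.26, 6.27 and 5.82 in hyperoxic retinas, 9.26, 7.01 and 6.95 at P12.5 and 5.24 to 6.14 in controls, so that hyperoxic 1 and hypoxic 1 held the most. None of them passed the test with all arrays (median 0.88), and Crygb and Cryaa passed without hyperoxic 1 (median 1.84). Erythroid markers had means of 7.45, 8.0 and 8.19 in hyperoxic retinas and 6.96, 6.99 and 8.04 at P12.5, and pigment epithelium markers means of 7.81, 8.01 and 7.73 against 7.75, 7.66 and 7.48, with none called with all arrays. Without hyperoxic 1, Tyrp1, Mitf and Rdh5 of the 11 pigment epithelium markers passed as lower, against 5.02% of all genes. The median of that list went from -0.21 to -0.50. The part of these cells in the results above was not tested.

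Among the called genes hyperoxic 1 had no constant side. For the 131 rises it lay between hyperoxic 2 and 3 in 25, below both in 60 and above both in 46, and their median difference was 0.90 with it and 0.92 without it. For the 83 falls the counts were 23, 37 and 23, and the median was -0.71 either way. A further 919 genes passed only without hyperoxic 1. In 65.3% of them hyperoxic 1 was nearer to the P12.5 mean than to the mean of hyperoxic 2 and 3. The share was 2.34% of the called genes and 51.9% of all genes. Both gene sets were picked by fits with or without this array, so their shares do not describe it in general. Of the 919, Selenbp1, a selenium-binding protein, is an example chosen after its values were seen. It was at 9.51, 7.06 and 7.27 on hyperoxic 1 to 3, at 7.22, 8.67 and 9.02 on control 1 to 3 and at 9.86, 9.51 and 9.71 on hypoxic 1 to 3, so that control 1, hyperoxic 2 and hyperoxic 3 were the low arrays.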

How the data were processed

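Whole-retina RNA of 9 mice was measured on Illumina arrays. Per the labels' protocols, biotinylated cRNA was made with an Ambion kit. Scanner software and background handling: not given in the sources used here. In the raw table the authors give a linear intensity for every probe on every array, not normalized and never negative, and, per the file headers, a detection p-value. Each deposited p-value column was matched to the intensity it follows, which for control 2 and 3 and the 3 hyperoxic arrays was not the one beside it. The authors' value table holds a linear ratio per probe, of unknown scaling, and served only for an added setting.

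The table lists 46640 probes, of which 27 had no signal anywhere. The platform annotation gave 1 gene symbol for 32781 of the remaining 46613, several for 55 and none for 13777; current gene identifiers were found for 32709. Intensities were corrected and scaled with neqc of limma 3.58.1 (R 4.3.3): normexp on negative controls inferred from detection p-values, offset 16, quantile scaling, log2. The offset shrinks the differences of dim genes. All 9 arrays entered 1 model (lmFit, eBayes) with a mean per group; the contrast was two-sided, with Benjamini-Hochberg adjustment over 19620 probes at 0.05. Where a group had no array on which a probe was detected, its rise is a lower bound (at least N-fold): the bright group's mean was set against, per array, the higher of the dimmest detected signal and the probe's own signal. Precision is limited by the number of arrays. The fit was tested on simulated data.

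Named are called genes with separated groups, the 25 of largest rise and the 25 of largest fall, leaving out clone names, up to 5 called members of lowest p per list, and 19 genes set whatever their values, of which 2 were not tested. List members outside that rule are named beside their list's count, chosen after their values were seen. The comparison, the 38 lists and these genes were chosen with earlier results of these data known.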

Additional observations from a re-analysis of the deposited data

How the results depend on the processing

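Besides the fit reported, 16 settings were tried. Leaving out 1 of the 6 arrays at a time gave 43 to 972 probes higher and 5 to 927 lower; the most came without hyperoxic 1, and the fewest without hypoxic 1 (43 and 5). Without hyperoxic 3 there were 80 and 14, without hypoxic 2, the array of the other Xist pattern, 74 and 13, and without hypoxic 3 51 and 5. The 6 arrays alone gave 90 and 19, no filter on dim probes 131 and 59, and the deposited ratios 21 and 0 (2561 probes at an unadjusted p under 0.05). Median centring gave 182 and 3, normexp without negative controls at offset 50 gave 264 and 176, no background correction 267 and 181, and only probes detected on all 6 arrays 189 and 215. Array weights, estimated gene by gene, a method chosen after seeing the data because the planned one did not converge, gave 2749 and 2540, with a weight of 0.118 for hyperoxic 1 and 4.12 for hyperoxic 3. The replicate block gave 110 and 17; deviations of same-numbered hyperoxic and P12.5 arrays correlated at 0.04, -0.10 and 0.11, so the numbers do not pair the samples. The cause of these differences was not tested. Of the 80 called genes named, 24 passed in all 6 fits that leave out an array and 13 under every setting in which they were tested (Bag3, Ccl4, Cdkn1a, H2-Ab1, H2-Q6, H2-Q8, H2-T23, Mt1, Muc5ac, Pdlim1, Sptb, Synpo and Tnfrsf12a), and none turned. All 13 were rises. Among the falls Arr3, Guca1b and Opn1mw lost the call in the fewest settings, 2 of 16 each. Vtn, Clu, Gnat1 and Rd3 lost it in 9, Slco1c1, Trf, Scn2b, Cisd1, Rxfp3 and Aqp4 in 10 and Slc17a1 in 11. Some rises lost it as often, such as Slc2a1 and Hk2 in 10. Turns were seen only in genes that had not passed: Fgf2 with median centring (0.10), the deposited ratios (0.031) and without hyperoxic 2 (0.009, the range without 1 array being -0.092 to 0.009); Per2 (0.14 and 0.13 under those scalings); Opn1sw with median centring (0.023); Dbp with the deposited ratios (0.069); and, without hypoxic 2, Xist (-0.495, range without 1 array -0.495 to 1.712) and Eif2s3y (0.42, range -1.716 to 0.42).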
